A study of Rattus norvegicus with 5 samples.

Results

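The genes described here are 52 components of the transforming growth factor beta (TGF-beta) and bone morphogenetic protein (BMP) pathways: 12 ligands, 11 receptors, 10 extracellular regulators, 7 Smads, 5 other intracellular regulators and 7 response genes. They were listed by their known roles, with earlier results of these data at hand, although the rule itself uses no measured value. They were found on the arrays by matching each probe's RefSeq accession to a rat gene symbol. A probe was found for 50 of the 52 among 15151 genes measured. Ski and Skil, which encode nuclear repressors of Smads, had no probe matched in this way and are not described.

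Ligands of this family are secreted as dimers, many of them in latent form or checked by binding proteins such as noggin, chordin and follistatin. A dimer brings together type II and type I receptor kinases, which phosphorylate receptor Smads. Smad2 and Smad3 carry signals of TGF-beta and activin, Smad1 and Smad5 those of BMPs, and both pairs enter the nucleus with Smad4. Smad6 and Smad7 are inhibitory Smads, and their genes are themselves induced by the pathway, as are the Id genes, which encode inhibitors of basic helix-loop-helix transcription factors and are classical targets of BMP. In the thyroid, TGF-beta is known as an inhibitor of follicular cell growth and of thyroid differentiation.

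The study compared 3D and 2D cultures of FRT cells, an epithelial line from the thyroid of the Fischer rat that forms polarized monolayers on plastic and hollow follicle-like structures in Matrigel, a basement membrane extract. RNA was taken on day 5 of culture from 4 biological replicates of each condition. On 4 Agilent 2-colour arrays, RNA of 1 3D replicate carried Cy5 and 1 pool of the 4 confluent 2D monolayers carried Cy3. On the remaining array the dyes were swapped, and the 2D pool was set against a pool of the 3D replicates. No gene was altered, and no agent was named as a treatment of either group. Per the paper, FRT medium held donor calf serum and a hormone mixture, and the 3D cultures were grown in Matrigel. The part of these in the results below was not tested. FRT is 1 line, so the replicates are cultures and not animals, and since the 2D monolayers were pooled, the spread between them is not part of any test below.

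Every value below is a log2 ratio of 3D over 2D signal unless another quantity is named, so that 1 stands for a doubling and positive values are higher in 3D. Ratios of the 4 replicate arrays correlated with each other at r = 0.871 to 0.946 across genes, and those of the swapped array, with the sign turned, at 0.734 to 0.765 with the replicates. On each array 45% to 50.9% of probes were well above background in a given condition, and 0 spots were saturated. All 12 epithelial markers were well above background, whereas only 5 of 12 thyroid markers were: Pax8 and Duox2 were read on every array, but thyroglobulin (Tg), the thyrotropin receptor (Tshr), the iodide transporter (Slc5a5) and Nkx2-1 were not well above background. Fibroblast markers were well above background for 5 of 10 genes, endothelial markers for 1 of 7, leukocyte markers for 3 of 8 and markers of calcitonin-producing C cells for 2 of 5. The summed signal of the fibroblast list was 881 to 1020 in 3D and 830 to 860 in 2D over the arrays, with Pdgfra, at 0.55, the only 1 of its 10 genes that passed (limma adjusted p = 6.79e-06), and the part of such cells in the results below was not tested. Summed signals of the epithelial, endothelial, leukocyte and C cell lists overlapped between the conditions. That of the thyroid list did not, at 6570 to 8830 in 3D and 4690 to 6210 in 2D. Its 2 genes that passed were Pax8 and Duox2, both higher in 3D. Apart from the epithelial list, the sums include genes not well above background. The background offset of 50 lifts the signal of such genes in both conditions, so an overlap says little about the presence of those cell types.

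The members with the largest rises in 3D follicles were Id2, Id1, Smad7 and Smad6, each more than doubled. They were followed by Smad1, the type II receptor Acvr2b, the repressor Tgif1, the type II receptor Bmpr2 and the type I receptor Bmpr1a. Those that fell were Pmepa1, Bmp7, the TGF-beta type II receptor Tgfbr2 and the follistatin relative Fstl3. In the linear model over all genes (limma, Benjamini-Hochberg adjustment, false discovery rate below 0.01), 16 of the 50 measured members passed, 12 higher and 4 lower in 3D, or 32.0%. Of all genes 25.9% passed, 14.4% higher and 11.5% lower. Among the 31 members well above background on at least 1 array 16 passed (51.6%), beside 43.5% of all such genes, of which 24.2% were higher and 19.3% lower. The median ratio of the members was 0.03, and that of all genes was 0.003. A ratio in bulk RNA cannot tell a change per cell from a change in the share of cells that express the gene.

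Members differed in how well they could be measured. In both conditions, 29 were well above background on at least 1 array each, and 19 were not well above background in either. Of the 29, Tgfb1 and Inhbb were well above background only in Cy5. That was 3D on the 4 replicate arrays and 2D on the swapped array, so their place among the 29 rests on 1 dye. Tgfb2 and Acvr1 were well above background in 3D only, on 2 arrays and on 1 array, each with 3D in Cy5. On the swapped array, where 3D carried Cy3, these genes were not well above background in either condition, so dye and culture cannot be told apart here. All 16 that passed were among the 29. For 2D of Tgfb2 and Acvr1, the background limit of each array was taken, or the probe's own signal where that was higher. Mean 3D signal lay above this by 0.14 for Tgfb2 and 0.02 for Acvr1 on the log2 scale. Since 3D itself was not well above background on most arrays, these values are not lower bounds, and neither gene passed the test. The 19 dim members, 5 of them ligands, 3 receptors, 6 extracellular regulators, 4 response genes and Smad3, had ratios between -0.16 and 0.10, which bound nothing about their levels.

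**Figure D1:**
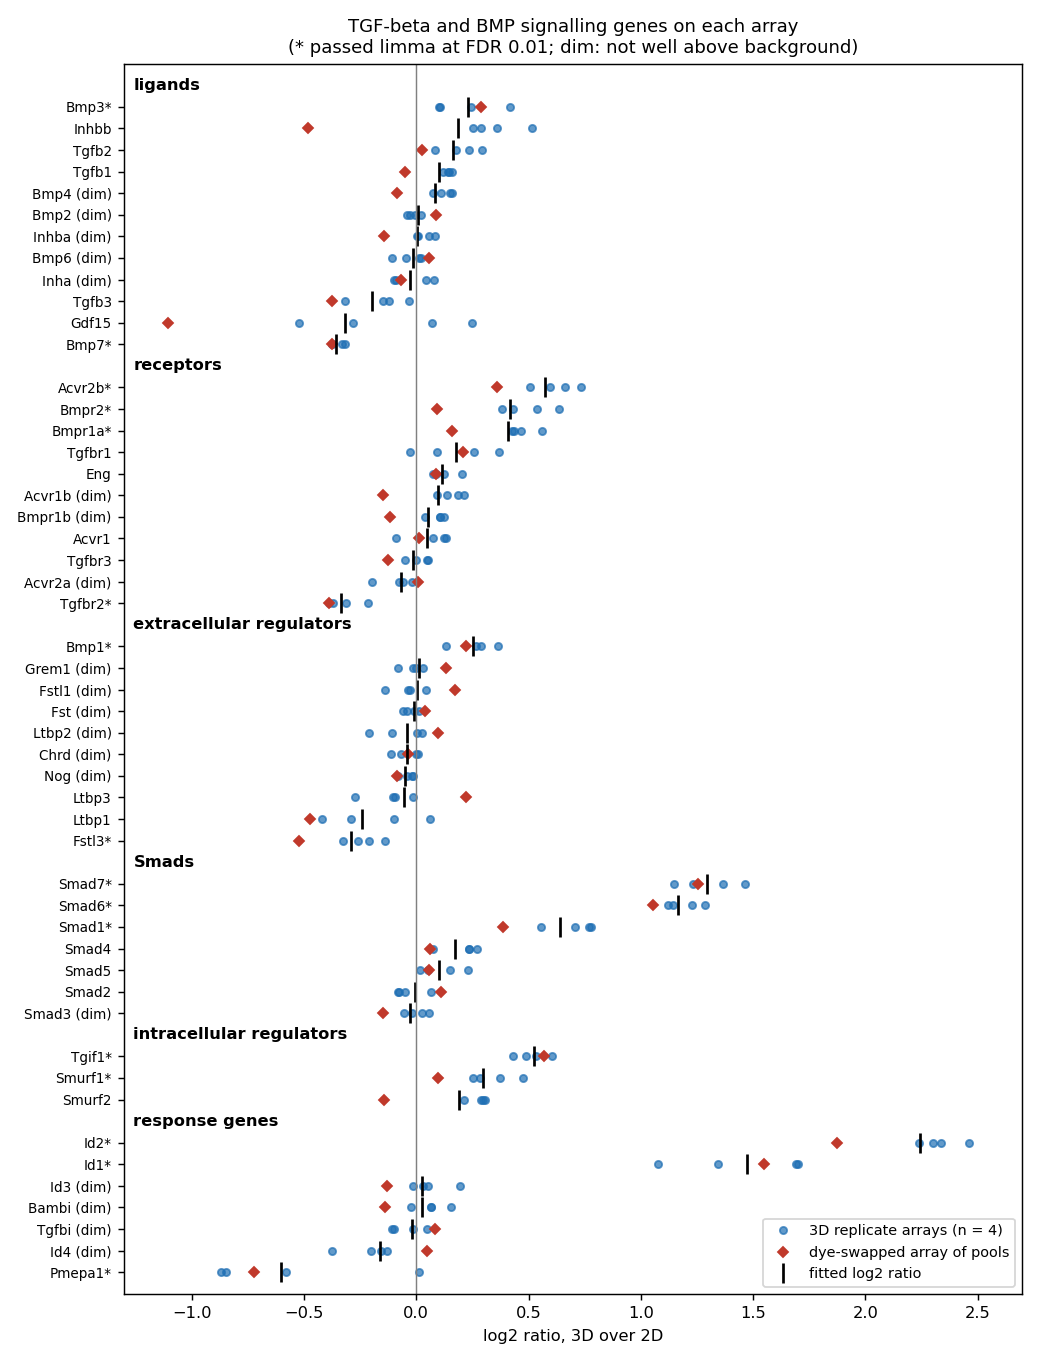
Log2 ratio of 3D over 2D signal of the 50 measured members on each array, grouped by role; blue points are the 4 replicate arrays, red diamonds the dye-swapped array of pools and black bars the fitted ratio. Id2, Id1, Smad7 and Smad6 lie above 1 on every array, while most other members lie within 0.5 of 0; an asterisk marks the 16 that passed.

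Of the 12 ligands, 1 passed as higher and 1 as lower. Bmp7, a BMP ligand made by many epithelia, had ratios of -0.32, -0.37, -0.33 and -0.38 in 3D replicates 1 to 4 and -0.38 on the swapped array. The 5 arrays lay close together, all below 0, and the fitted ratio was -0.36 ± 0.04 (SE; limma adjusted p = 5.91e-05). Bmp3, a ligand that acts against other BMPs, gave 0.42, 0.25, 0.11, 0.10 and, on the swapped array, 0.29. Its fitted ratio of 0.23 ± 0.05 passed narrowly (limma adjusted p = 0.00773), and it did not pass without any one of the 5 arrays, with values from 0.18 to 0.26. TGF-beta ligands themselves gave no call. Tgfb1 was 0.10 (limma adjusted p = 0.115), Tgfb2 0.16 (0.0283) and Tgfb3 -0.20 (0.0206). The ratios of Tgfb1 were 0.12 to 0.16 in the replicates but -0.05 on the swapped array. Without the swapped array Tgfb2 passed at 0.20. With a dye term, where the swapped array counts as much as the 4 replicates together, Tgfb3 passed at -0.27 (limma adjusted p = 0.0046). On Agilent's own processed signals, which carry no offset, the ratios were 1.22 for Tgfb2 and -0.85 for Tgfb3, several times as large, and did not pass (limma adjusted p = 0.0264 and 0.0354).

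Gdf15, a divergent family member known as a stress-induced cytokine, had the widest spread among the ligands. Its ratios were -0.28, -0.52, 0.25 and 0.07 in the replicates and -1.10 on the swapped array, so the replicates lay on both sides of 0 and the pools did not. The fitted ratio of -0.32 did not pass (limma adjusted p = 0.181). With a dye term, where the swapped array counts as much as the 4 replicates together, it was -0.61 and passed (limma adjusted p = 0.00322). Without the swapped array it was -0.12 and did not pass. Inhbb, which encodes the beta B chain of activin B, was 0.51, 0.36, 0.29 and 0.25 in the replicates but -0.48 on the swapped array. When the model held a dye term, Inhbb was the 1 member with a dye effect that passed (0.42, limma adjusted p = 0.00486), and without the swapped array its ratio of 0.35 passed. Its other probe, not well above background on any array, averaged -0.10. Bmp2, Bmp4, Bmp6, Inha and Inhba, the ligands or chains for the canonical BMPs, inhibin and activin A, were all dim in both conditions.

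Of 11 receptors, 3 passed as higher and 1 as lower. Acvr2b, a type II receptor for activins and BMPs, gave 0.51, 0.66, 0.59 and 0.73 in the replicates and 0.36 on the swapped array. Its fitted ratio was 0.57 ± 0.06 (SE; limma adjusted p = 3.85e-05), or 1.49-fold, and its other probe averaged 0.35. Bmpr2, the type II receptor for BMPs, gave 0.54, 0.64, 0.38, 0.43 and, on the swapped array, 0.09 (fitted 0.42 ± 0.07, limma adjusted p = 0.0013). Bmpr1a, a type I receptor for BMPs, gave 0.56, 0.43, 0.44, 0.47 and 0.16 (fitted 0.41 ± 0.06, limma adjusted p = 0.000375). In all 3 receptors the swapped array was the lowest of the 5, though still above 0.

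Tgfbr2, the type II receptor that binds TGF-beta, went the other way, at -0.21, -0.37, -0.39 and -0.31 in the replicates and -0.39 on the swapped array. The fitted ratio was -0.33 ± 0.04 (SE; limma adjusted p = 0.000204), a 1.26-fold lower signal in 3D, and its other probe averaged -0.22. Its partner Tgfbr1, the type I receptor, ranged from -0.03 in replicate 1 to 0.37 in replicate 4 and did not pass (0.18, limma adjusted p = 0.04). The co-receptors endoglin (Eng, 0.12, limma adjusted p = 0.0505) and betaglycan (Tgfbr3, -0.02) did not pass either. Acvr1b, Acvr2a and Bmpr1b, which serve activin and BMP, were dim in both conditions. Under centring of each array on its median in place of loess, Tgfbr2 was 0.02 and Bmp7 0.06, both with the sign reversed and not passing.

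Among 10 extracellular regulators only Bmp1 and Fstl3 passed. Bmp1 is not a ligand but a metalloproteinase that cleaves procollagens and the BMP antagonist chordin. Its ratios were 0.27, 0.13, 0.37 and 0.29 in the replicates and 0.22 on the swapped array (fitted 0.25 ± 0.04, limma adjusted p = 0.00154), and it did not pass without replicate 4, at 0.25. Fstl3, a secreted binding protein of activin, was -0.26, -0.33, -0.21, -0.14 and -0.52 (fitted -0.29 ± 0.06, limma adjusted p = 0.00287), with all 5 arrays below 0 and the swapped array lowest. It did not pass without replicate 1, at -0.30, or without replicate 2, at -0.28. Ltbp1, which holds latent TGF-beta in the matrix, was 0.06 in replicate 1 and -0.10, -0.29, -0.42 and -0.47 on the others. Its fitted ratio of -0.24 did not pass (limma adjusted p = 0.0322) but did without replicate 1, at -0.32. The antagonists noggin (Nog), gremlin (Grem1), chordin (Chrd) and follistatin (Fst) were dim in both conditions.

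Of the 7 Smads, 3 passed as higher and 0 as lower. Smad7 had ratios of 1.15, 1.23, 1.46 and 1.36 in the replicates and 1.26 on the swapped array. Its fitted ratio was 1.29 ± 0.05 (SE; 95% confidence interval 1.18 to 1.41; limma adjusted p = 1.56e-07), or 2.45-fold. Smad6, the inhibitory Smad that acts mainly on BMP signals, gave 1.12, 1.23, 1.14, 1.29 and 1.05. All 5 arrays lay above 1, and the fitted ratio was 1.17 ± 0.05 (SE; limma adjusted p = 1.38e-07), or 2.25-fold. Among all 15151 genes ordered by rise, Smad7 was the 92nd and Smad6 the 127th.

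Smad1, a receptor Smad of the BMP branch, gave 0.56, 0.71, 0.78 and 0.77 in the replicates and 0.39 on the swapped array. It was higher in 3D on every array, at a fitted 0.64 ± 0.06 (SE; limma adjusted p = 3.25e-05). Its relative Smad5 was 0.10 (95% confidence interval -0.0009 to 0.20) and did not pass. Smad2, of the TGF-beta branch, was -0.01 (interval -0.11 to 0.10), on probes well above background on all 5 arrays in both conditions, while Smad3 was dim in both. The shared partner Smad4 was 0.17 (limma adjusted p = 0.0164) and passed only without the swapped array, at 0.20.

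**Figure D2:**
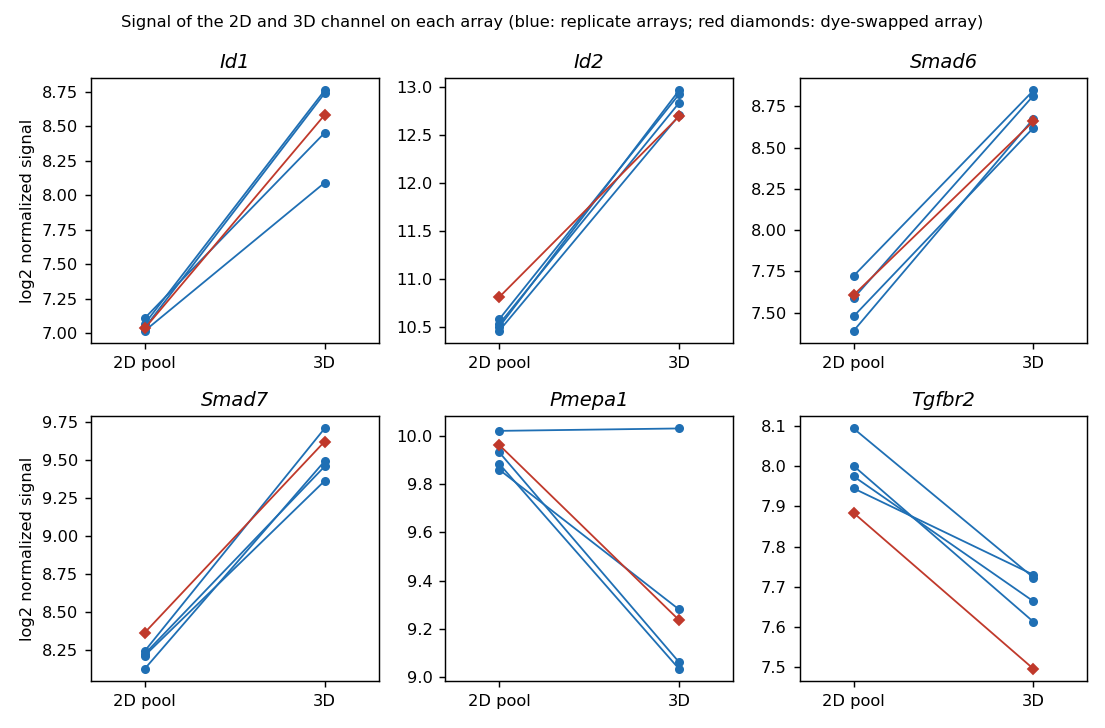
Normalized log2 signal of the 2D channel and the 3D channel, joined for each array, for the 4 members with the largest rise and for Pmepa1 and Tgfbr2; blue marks replicate arrays and red diamonds the dye-swapped array. Lines of Id1, Id2, Smad6 and Smad7 rise on all 5 arrays, and in Pmepa1 the line of replicate 1 alone is flat.

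Of the other intracellular regulators, Tgif1 and Smurf1 passed as higher. Tgif1, a homeodomain repressor that binds Smads, gave 0.49, 0.43, 0.54 and 0.60 in the replicates and 0.57 on the swapped array. The swapped array lay inside the range of the replicates here, and the fitted ratio was 0.52 ± 0.04 (SE; limma adjusted p = 9.16e-06). Smurf1, a ubiquitin ligase that targets BMP receptor Smads and, through Smad7, receptors, was 0.47, 0.37, 0.28, 0.25 and 0.10 on its brighter probe (fitted 0.30 ± 0.06, limma adjusted p = 0.00221). Its other probe, also well above background on all 5 arrays, averaged -0.05, and the mean of both, 0.12, did not pass, so the 2 probes of this gene disagree. It also did not pass without replicate 2, at 0.28, or without replicate 3, at 0.30. Smurf2 was 0.30, 0.30, 0.21 and 0.29 in the replicates but -0.14 on the swapped array, did not pass (0.19, limma adjusted p = 0.0557) and did without the swapped array, at 0.28.

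Among the response genes were Id2, with the largest fitted rise of the members, and Pmepa1, with the largest fitted fall. Id2 had ratios of 2.24, 2.46, 2.30 and 2.34 in the replicates and 1.88 on the swapped array. The replicates averaged 2.33 ± 0.09 (SD, n = 4), and the fit over 5 arrays gave 2.24 ± 0.07 (SE; 95% confidence interval 2.07 to 2.41; limma adjusted p = 7.21e-08), or 4.73-fold. Id2 was the 14th gene of 15151 in order of rise. Id1 gave 1.07, 1.34, 1.70 and 1.69 in the replicates, a mean of 1.45 ± 0.30 (SD, n = 4), and 1.55 on the swapped array. It was lowest in replicate 1, yet at least doubled on every array, and its fitted ratio was 1.47 ± 0.09 (SE; limma adjusted p = 1.49e-06), or 2.78-fold, the 70th in order of rise. Id3 (0.03), Id4 (-0.16), Tgfbi (-0.02) and Bambi (0.02), a decoy receptor gene induced by the pathway, were dim in both conditions and did not pass.

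Pmepa1, a TGF-beta target whose membrane protein holds back receptor Smads, was lower in 3D at -0.58, -0.87 and -0.85 in replicates 2 to 4 and -0.72 on the swapped array, but 0.01 in replicate 1. Replicate 1 was thus the highest of the 5 arrays, and the replicate mean was -0.57 ± 0.41 (SD, n = 4). The fitted ratio was -0.60 ± 0.11 (SE; limma adjusted p = 0.00235), and it was -0.61, -0.53 and -0.54 without replicate 2, 3 or 4, none of which passed. Its place as the largest fall depends on the processing: it was -0.08 under median centring, where Fstl3 was -0.21 and Id4 -0.34, and on Agilent's processed signals it was -0.68, against -0.75 for Fstl3 and -0.85 for Tgfb3. Id1, Smad7, Tgfbr2 and Ltbp1 were likewise nearest to 0 in replicate 1, or above it for Ltbp1, whereas Bmp3, Bmpr1a, Smurf1 and Inhbb were highest there, and what goes with this culture was not tested.

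Promoters are shown for the 2 response genes and the inhibitory Smad with the largest rises and for Pmepa1, the member with the largest fitted fall, since the pathway's transcription factors are known to act at such regions. They are from RefSeq on the build GRCr8, printed 5′ to 3′ on the strand of the gene and ending at the base before the annotated gene start, with GGCGCC, a GC-rich motif bound by Smads, and AGAC or its reverse complement GTCT, the Smad box, in capitals.
Id2 (chr6:47470996-47471245, minus strand): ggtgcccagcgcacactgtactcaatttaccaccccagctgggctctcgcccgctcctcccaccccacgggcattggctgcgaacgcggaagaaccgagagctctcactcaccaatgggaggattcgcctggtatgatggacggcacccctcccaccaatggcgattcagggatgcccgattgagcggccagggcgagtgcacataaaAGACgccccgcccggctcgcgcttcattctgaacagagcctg
Id1 (chr3:161671314-161671524, plus strand): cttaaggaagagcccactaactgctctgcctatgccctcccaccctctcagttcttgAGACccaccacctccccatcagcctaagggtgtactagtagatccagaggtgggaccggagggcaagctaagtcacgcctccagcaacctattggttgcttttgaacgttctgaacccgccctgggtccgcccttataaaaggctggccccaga
Smad7 (chr18:71263258-71263507, plus strand): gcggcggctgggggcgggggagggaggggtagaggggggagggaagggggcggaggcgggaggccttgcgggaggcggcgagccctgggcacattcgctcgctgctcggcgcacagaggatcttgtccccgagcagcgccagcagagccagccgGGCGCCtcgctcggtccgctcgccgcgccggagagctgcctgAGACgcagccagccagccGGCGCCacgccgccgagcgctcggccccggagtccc
Pmepa1 (chr3:182478650-182478899, minus strand): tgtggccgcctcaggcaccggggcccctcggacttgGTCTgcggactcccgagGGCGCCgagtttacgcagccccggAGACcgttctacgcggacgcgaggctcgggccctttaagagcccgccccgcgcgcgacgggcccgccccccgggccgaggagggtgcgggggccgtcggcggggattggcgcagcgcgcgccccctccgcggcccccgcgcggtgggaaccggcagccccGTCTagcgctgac
Positions are counted from the start of transcription in the promoter table, which for Id1 lies inside the annotated gene, so that its run stops early and holds 211 bases. Smad7 holds GGCGCC at -96 and -36 and AGAC at -54. Id2 holds AGAC at -42 and Id1 at -193. Pmepa1, which fell, holds GGCGCC at -197 and the Smad box at -214, -173 and -13. Among 33469 rat promoters read over the 250 bases before the start on both strands, 8.69% held GGCGCC and 84% the Smad box, so the shorter motif says little in a window of this length. A promoter entry was found for 43 of the 52 members, and 13 held GGCGCC and 31 the Smad box. Of the 8 with an entry that rose, 1 held GGCGCC and 4 the Smad box, and of the 3 that fell, 1 and 2. No entry was found for Smad6. A match is a description of the letters and not a binding site.

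**Figure D3:**
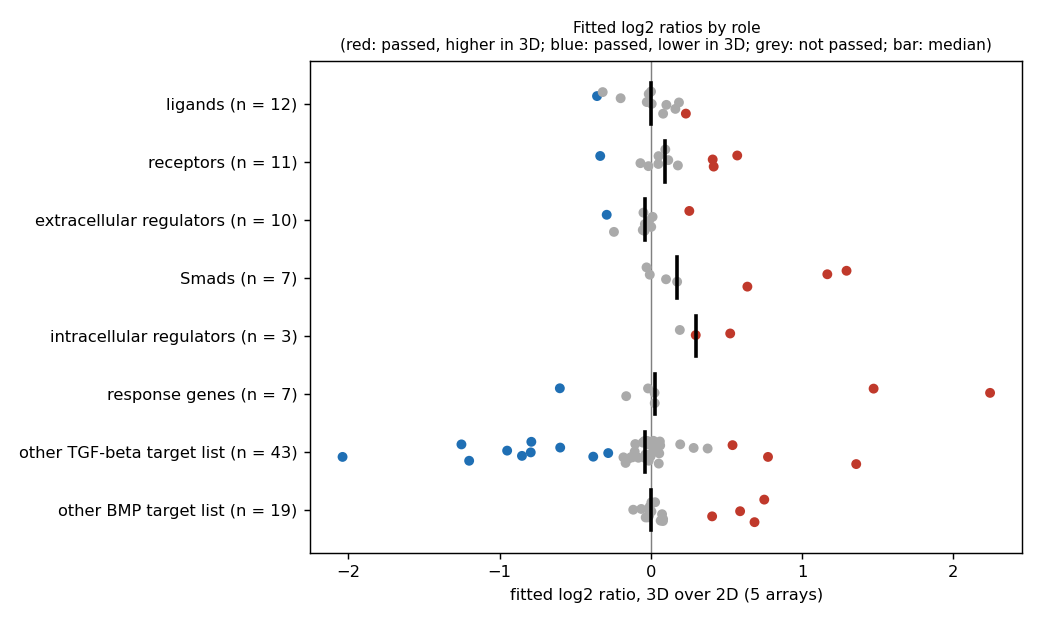
Fitted log2 ratio of each measured gene by role, with the 6 member roles above and 2 lists of other target genes below; red marks genes that passed as higher in 3D, blue as lower and grey those that did not pass, and black bars are medians. Medians of all roles lie within 0.30 of 0, and the calls of the Smads lie on the right side only.

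Compared by role, medians of the fitted ratio were 0.30 for the 3 intracellular regulators, 0.17 for the Smads, 0.10 for the receptors, 0.02 for the response genes, 0.004 for the ligands and -0.04 for the extracellular regulators. The value of 0.30 is that of Smurf1, whose probes disagree, and it was 0.20 with the mean of probes. Those of the Smads and receptors are the values of Smad4, which did not pass, and of Acvr1b, which was dim in both conditions. The median of the Smads was above 0 on each array (0.23, 0.27, 0.23 and 0.08 in the replicates and 0.11 on the swapped array), as was that of the receptors, from 0.01 on the swapped array to 0.13. Those of the ligands ranged from -0.08 to 0.07, with the swapped array the one below 0. These medians mix dim and bright genes: with dim probes removed, the median was 0.41 for the Smads, 0.18 for the receptors, -0.05 for the ligands, -0.15 for the extracellular regulators and 1.47 for the response genes, of which 3 were then left. The order of the roles also changed with the normalization. On Agilent's processed signals the receptors stood first at 0.42, above the intracellular regulators at 0.29 and the Smads at 0.27, with the response genes at -0.21, and under median centring the receptors were at 0.02, the Smads at 0.46 and the intracellular regulators at 0.83.

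To place the members, 161 further genes of the pathway were read from lists drawn up by role in the pathway, and 134 were measured. Of these, 16 passed as higher and 13 as lower, or 21.6%, beside 25.9% of all genes. But 61 of the 134 were dim in both conditions. All 29 that passed were among the 73 well above background on at least 1 array, and of all genes so measured 43.5% passed. Of 17 other ligands 1 passed, Gdf7 (0.41, limma adjusted p = 0.000126), but 15 of them were dim in both conditions. All 5 other receptors were dim in both as well, so that the count of 0 that passed in limma, and of 0 with an unadjusted p under 0.05, says nothing of a change. Of 25 other extracellular genes, Htra1, a secreted serine protease known to restrain TGF-beta family signals, was lower at -1.08, -1.78, -1.69 and -1.72 in the replicates and -1.17 on the swapped array (fitted -1.49 ± 0.11, limma adjusted p = 4.64e-06). Furin, the convertase that cleaves the ligand precursors, was higher at 0.26 (limma adjusted p = 0.00595) but did not pass without replicate 1, 2, 3 or 4, each taken out in turn, at 0.22 to 0.28.

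Among 27 other intracellular genes 7 passed as higher and 2 as lower. The lower ones were Ppp1r15a, which brings a phosphatase to Smad7-bound receptors and to the translation factor eIF2 alpha, and Fkbp1a, which binds and quiets type I receptors. Ppp1r15a was -1.95, -1.63, -1.85, -1.74 and, on the swapped array, -2.18 (fitted -1.87 ± 0.07, limma adjusted p = 1.31e-07). Fkbp1a was -0.84, -0.91, -0.76, -0.82 and -0.43 (fitted -0.75 ± 0.07, limma adjusted p = 1.7e-05). The largest rises were smaller: 0.42 for the kinase Hipk2, which did not pass without replicate 2, at 0.41, then 0.31 for the ubiquitin ligase Stub1 and 0.28 for the deubiquitinase Usp9x. Neither of the last passed when any 1 of the 4 replicates was left out, at 0.27 to 0.30 for Stub1 and 0.24 to 0.28 for Usp9x.

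Other target genes moved in both directions. Of 43 measured genes on a list of TGF-beta targets, 10 passed as lower and 3 as higher, or 30.2%, with a median of -0.04, beside 25.9% of all genes (11.5% lower and 14.4% higher). All 13 were among the 27 genes of the list that were well above background on at least 1 array. Of all genes so measured 43.5% passed, so the share called in both directions together was near the background. By direction, 10 of the 27 were lower and 3 higher, beside 19.3% lower and 24.2% higher of all such genes, and this split was not tested. Fibronectin (Fn1) was -1.28, -2.13, -2.43 and -2.41 in the replicates and -1.93 on the swapped array, again nearest to 0 in replicate 1. Its fitted ratio was -2.04 ± 0.14 (SE; limma adjusted p = 4.49e-06), and the mean over its probes was -1.42. Ccn2, or connective tissue growth factor, was -1.25 ± 0.04 (limma adjusted p = 9.47e-08), and Wnt7a -1.20 ± 0.07 (1.2e-06). Those higher were Cdkn2b, the cell cycle inhibitor p15, at 1.36 ± 0.05 (limma adjusted p = 8.83e-08), Klf10 at 0.77 ± 0.06 (8.3e-06) and Junb at 0.54 ± 0.12 (0.00515), the last of which did not pass without replicate 2, 3 or 4, with values of 0.44 to 0.60 over the replicates left out. Several of these genes, Ccn2 among them, are known to answer to other pathways as well.

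On a list of 19 measured BMP targets, 4 passed as higher and 0 as lower, with a median of 0.004. The share of 21.1% was below the 25.9% of all genes, of which 14.4% were higher. All 4 were among the 8 genes of the list that were well above background on at least 1 array. Of all genes so measured 43.5% passed, 24.2% as higher. Those that passed were the transcription factors Tbx3 (0.75 ± 0.16, limma adjusted p = 0.00405), Cdx2 (0.69 ± 0.06, 2.12e-05), Gata3 (0.59 ± 0.07, 0.000142) and Msx1 (0.41 ± 0.05, 0.000135). Tbx3 was 0.81 to 1.10 in the replicates but -0.14 on the swapped array, and it did not pass when any 1 of the 4 replicates was left out, at 0.66 to 0.73. Cdx2, Gata3 and Msx1 were above 0 on all 5 arrays. The remaining 15 did not pass, and 11 of the 19 were not well above background in either condition.

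**Figure D4:**
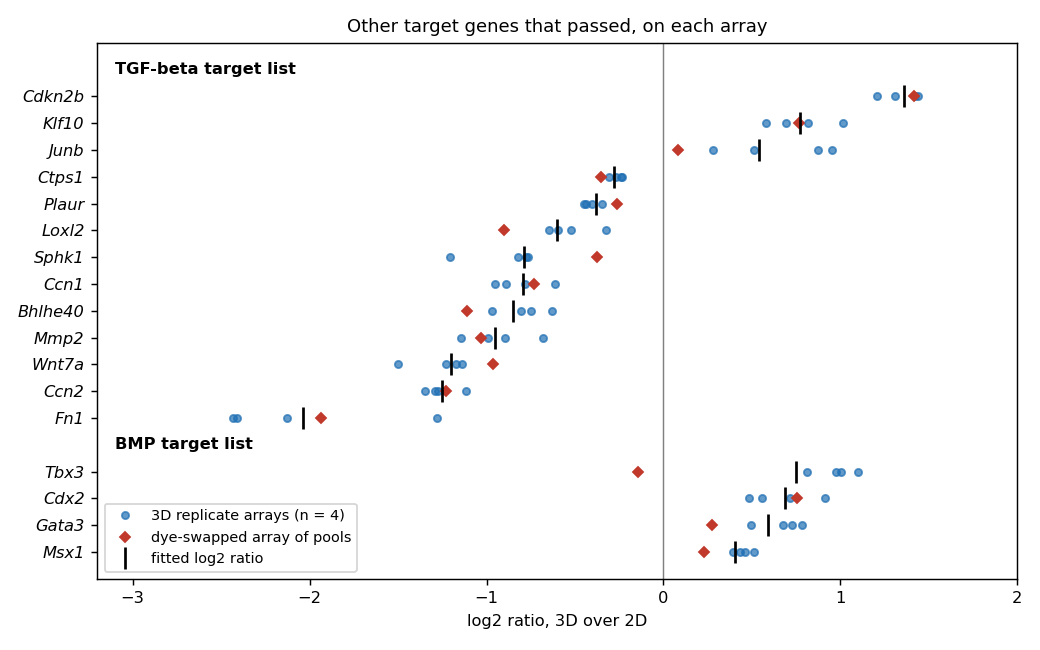
Log2 ratio of 3D over 2D signal on each array for the genes of the other TGF-beta target list (13) and the BMP target list (4) that passed; points are replicate arrays, red diamonds the swapped array and bars the fitted ratio. In the upper list 10 genes lie below 0 and 3 above, in the lower list all 4 fitted ratios lie above 0, and the swapped array of Tbx3 lies below.

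**Figure D5:**
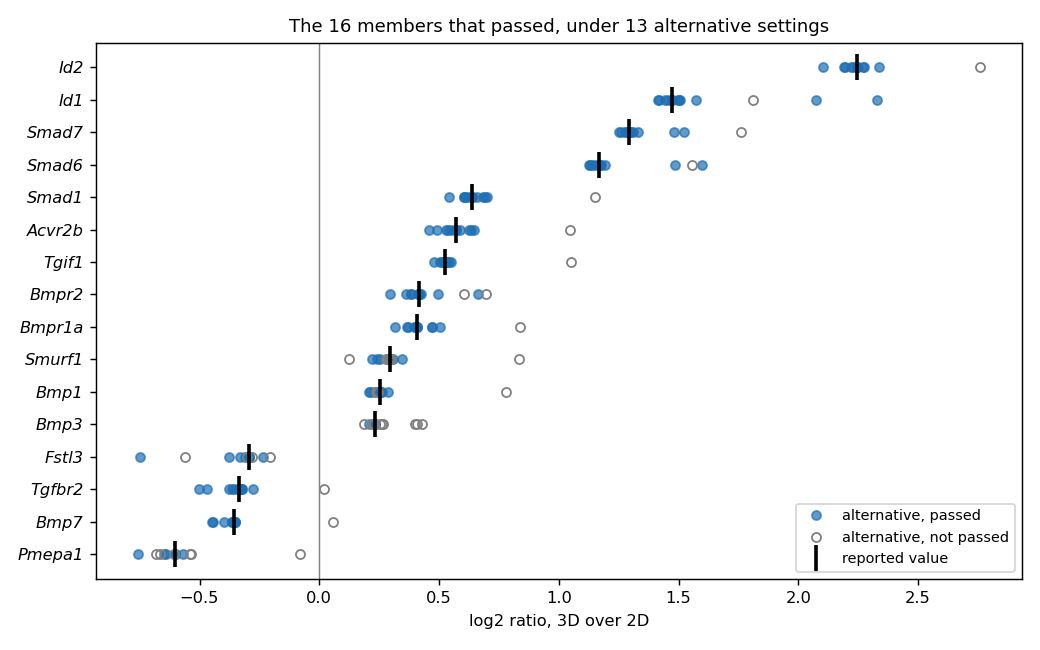
Log2 ratio of the 16 members that passed under 13 alternative settings of normalization, filter, probe and arrays; filled points passed at the same threshold, open points did not and bars are the reported values. Id2, Id1, Smad7 and Smad6 stay above 1 in each setting, whereas Bmp7 and Tgfbr2 have 1 open point each just above 0.

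The 4 members with the largest rise passed in 12 of the 13 alternatives shown in the plot of settings. Their ratios ranged over 2.10 to 2.76 for Id2, 1.41 to 2.33 for Id1, 1.25 to 1.76 for Smad7 and 1.12 to 1.60 for Smad6, all above 1. Bmp1, Bmp3, Bmpr2, Fstl3, Pmepa1 and Smurf1 also did not pass with a background offset of 0 in place of 50, nor did Bmp1, Bmp3, Pmepa1 and Smurf1 on Agilent's own processed signals. Of the 50 members 4 (8%) passed and were at least doubled, beside 1.19% of all genes, and 0 passed and were at least halved, beside 0.983%. The setting in which none of the 16 passed, median centring, left 7 genes of the whole array past the threshold, and the limma adjusted p there was 0.02 for Id1, 0.0251 for Id2, 0.0264 for Smad6 and 0.0268 for Smad7. On the signs of the 4 replicates alone, an exact two-sided test cannot give a p below 0.125.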

How the data were processed

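Agilent 2-colour rat arrays of 4 replicate comparisons and 1 dye swap, all on 1 slide, were analysed. The authors deposited unnormalized intensities of each spot and of its surroundings, as medians over pixels, from Feature Extraction 10.7.3.1 per the file headers. The authors' table of log2 ratios, deposited as well, was made with limma per the submitters' notes by normexp, loess and quantiles, and each of its columns proved to be 3D over 2D when set against the scanner files. The log10 ratios in the deposited scanner files served as that check of direction.

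Intensities were corrected by normexp (offset 50), which compresses ratios of dim genes, and normalized within arrays by loess (control spots at weight 0) and between arrays by Aquantile in limma 3.58.1 (R 4.3.3). A probe was called well above background on an array when at least 0.5 of its spots were. Spots marked as outliers (1.12% to 1.6%) were left out. Of 30367 probes, 17998 (59.3%) had a symbol by RefSeq accession from a table of the build GRCr8, for 15151 genes with a value on every array, each read from its brightest probe. The model had 1 coefficient over 5 arrays. The sign of the swapped array was reversed, and it had the same weight as a replicate although its RNA came from the same cultures. The number of arrays limits the precision. Alternatives were a dye term, offset 0, Agilent's processed intensities, median centring, the authors' table, removal of dim probes (well above background on fewer than 3 arrays), the mean of probes, outlier spots kept, and each array left out. The fit was tested on simulated data.

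The members and all lists were chosen with earlier results of these data known. All members may be named, and of each other list the 3 largest rises and falls that passed. Msx1, the last of 4 BMP targets that passed, and the markers named were chosen after their values were seen. Markers were not tested as sets. RNA integrity numbers were 8.1 to 9.6 per the labels.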

Additional observations from a re-analysis of the deposited data

Results flagged for a closer look

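Smurf2, the ubiquitin ligase, was the 1 value of 57 tested in which a replicate lay far from the others of its group. Replicate 3 was lowest at 0.21 against 0.29 to 0.30 in the other 3, and the gap took a share of 0.843 of the group's range. Chance gives about 1 such value in 20 tested, so 1 among 57 is not more than that rate.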

How the results depend on the processing

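No paired analysis was possible because the 2D cultures were pooled and the groups share fewer than 2 replicate numbers. Of the 16 members that passed, 10 did so in at least 12 of 13 alternatives and all 16 lost the call under median centring, where 7 genes in all passed as higher and 0 as lower. Of the members 0 passed as higher and 0 as lower there, and of the other pathway genes 0 and 0. In that setting medians were -0.044 for ligands, 0.020 for receptors, -0.17 for extracellular regulators, 0.46 for Smads, 0.83 for intracellular regulators and -0.17 for response genes, and the sign turned for Bmp7 (0.057), Tgfbr2 (0.020), Gdf15 (0.11) and Acvr1b (-0.054). The cause was not tested. With offset 0, 1178 genes were higher and 1044 lower, 2 members were lower, 7 other pathway genes were higher, and medians were 0.28 for receptors, -0.11 for extracellular regulators and 0.14 for response genes. With Agilent's processed intensities 7 other pathway genes were higher, and medians were 0.42 for receptors, 0.27 for Smads and -0.21 for response genes. Without dim probes medians were -0.048 for ligands, 0.18 for receptors, -0.15 for extracellular regulators, 0.41 for Smads and 1.47 for response genes. With a dye term the median was 0.036 for receptors and 0.0090 for extracellular regulators, and Inhbb was -0.065, with the sign turned. Gdf15 (-0.61, limma adjusted p = 0.00322) and Tgfb3 (-0.27, limma adjusted p = 0.0046) passed there. In that fit the swapped array counts as much as the 4 replicates together. With the mean of probes the median of intracellular regulators was 0.20. With 1 array left out, 10 to 16 members were higher and 2 to 5 lower, 7 to 21 other pathway genes were higher and 13 to 16 lower, and 1644 to 2862 of all genes were higher and 1344 to 2188 lower. With 1 replicate left out, 2 to 4 members were lower, 7 to 11 other pathway genes were higher and receptor medians were 0.067 to 0.094, against 0.12 without the swapped array. Without the swapped array Acvr1b (0.16), Id4 (-0.22), Inhbb (0.35), Smad4 (0.20), Smurf2 (0.28) and Tgfb2 (0.20) passed and Bmp3 (0.22) did not. Depth is not defined for arrays: 19 of 50 members were not well above background in either condition, and their ratios bound nothing.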
